A study of Mus musculus with 6 samples.

Results

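The 41 mitosis and G2/M genes described here are the cyclins and kinases that start mitosis, the checkpoint that watches the spindle, the kinetochore and spindle genes, the condensins and the genes of cytokinesis. They were chosen by name from a list of known mitotic genes, with earlier results of these data known. All 41 were found among the 54532 genes of the deposited table. All 41 also passed the filter on low values (at least 1 FPKM on average), which left 12749 genes to test. FPKM is the number of fragments on a gene scaled by its length and by library depth, so levels can be compared between genes. The study asked how circRtn4, a circular RNA made from exons of the reticulon gene Rtn4, acts in neurite growth, with miR-24-3p as the microRNA that circRtn4 binds. The cells were N2a, a line from a mouse neuroblastoma, labelled as strain C57BL/6, that divides in culture and can be made to extend neurites. Of the 6 libraries, 3 came from N2a cells given the control siRNA (si-NC) and 3 from cells given si-circRtn4, which targets the circular RNA. All 6 carry an siRNA, and the labels give growth medium with serum for both groups and no time point. The general methods of the study put N2a cells into retinoic acid medium after transfection, so the values can be of dividing or of differentiating cells.

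Entry into mitosis is driven by the kinase Cdk1 bound to a B cyclin, which Cdc25 phosphatases activate. The spindle assembly checkpoint then holds the anaphase-promoting complex back until every kinetochore is attached, after which Cdc20 and the complex destroy securin and cyclin B. Many of these genes are transcribed late in the cell cycle, through the DREAM and MuvB complexes and FoxM1, and they fall together when cells leave the cycle.

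Reads on genes numbered between 13541198 and 15122063 per library, and a mitosis and G2/M gene took between 167 and 11802 of them. Of 10 neuroblastoma markers, 9 had a mean of at least 1 FPKM and Nefl was at 0, and the defining fibroblast, immune, glial and epithelial markers all had a mean under 1 FPKM. The summed level of the neuroblastoma markers ran from 1250 to 1327 FPKM in the si-NC libraries and from 771 to 1054 FPKM in the si-circRtn4 libraries, and its part in the results below was not tested. Rtn4 itself was at 61, 66.8 and 69.8 FPKM with si-NC and at 50.1, 56.7 and 62.7 FPKM with si-circRtn4, and this value takes linear and circular RNA together.

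Most mitosis and G2/M genes were slightly lower in the si-circRtn4 libraries, and few were lower by more than the spread between libraries. The log2 fold change was below 0 for 40 of the 41 genes, while under TPM scaling this number was 31. Its median was -0.155, against 0.002 over all genes tested, on the log2(FPKM + 1) scale used throughout. This median ran from -0.097 without si-circRtn4 1 and -0.102 without si-NC 2 to -0.253 without si-NC 1, and under TPM it was -0.079, with all genes at 0.086. Mean levels with si-circRtn4 ran from 75.2% (Pttg1) to 101% (Smc2) of those with si-NC, with a median of 88.5%. In bulk RNA, fewer dividing cells and less RNA per cell cannot be told apart.

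In the limma fit without pairing, with Benjamini-Hochberg adjustment over all genes tested, only Pttg1 fell, which is 2.44% of the 41 genes against 4.82% of all genes tested called lower. No mitosis and G2/M gene rose, against 4.36% of all genes tested called higher. With si-NC 1 left out, 3 were called lower (Smc4, Hmmr and Pttg1), and with any other library left out 0 were. With all libraries in this fit without pairing, the genes were called no more often than other genes. For the fits without a library, the share of all genes called is not given here. At an unadjusted p under 0.05 with all libraries, 10 of the 41 genes were lower (24.4%, against 12.8% of all genes tested). At that threshold 0 were higher, against 1675 of the 12749 genes tested. In 9 of the 41 genes (22%) every si-circRtn4 library lay below every si-NC library, against 15.5% of all genes tested. These 9 were Cdc25c, Plk1, Cdca8, Cdc20, Pttg1, Cenpe, Cenpf, Hmmr and Prc1.

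Libraries with the same replicate number deviated together, and a fit that took the replicate number as a block called more of the genes. It called 11 of 41 lower (26.8%), against 9.75% of all genes tested, and 0 higher, against 9.29% of all genes tested. The 11 were Ccnb1, Ccnb2, Plk1, Aurkb, Cdca8, Bub1b, Cdc20, Pttg1, Nusap1, Hmmr and Prc1. The median standard error of the 41 genes was 0.116 without the block and 0.064 with it, against 0.106 and 0.076 for all genes tested. The block made the standard error smaller for all 41 genes, as it did for 94.5% of all genes tested. Without pair 1, 2 or 3 this fit called 4, 2 and 4 of the 41 genes lower. The share of all genes called in these smaller fits is not given here.

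**Figure D1:**
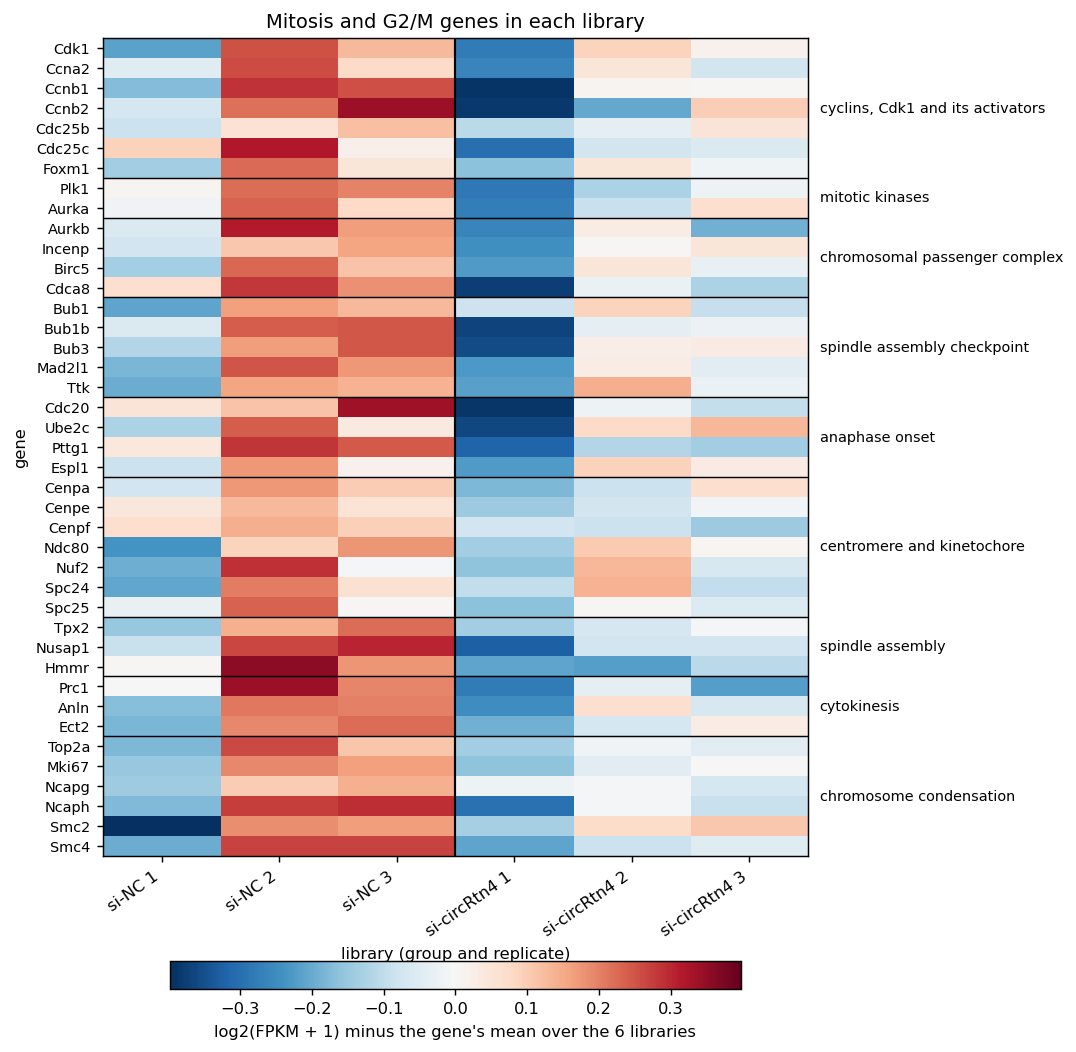
Level of each of the 41 mitosis and G2/M genes (rows, grouped by role) in each of the 6 libraries (columns), as log2(FPKM + 1) minus the gene's mean over the 6 libraries. Red is above and blue below that mean, and si-NC 2 and si-NC 3 are the reddest columns while si-NC 1 and si-circRtn4 1 are the bluest.

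Libraries of the same group differed widely in these genes. Of the si-NC libraries, replicate 1 was lowest for 40 of the 41 genes, and of the si-circRtn4 libraries, replicate 1 was lowest for 36. The highest value of all 6 libraries was in si-NC 2 for 29 genes and in si-NC 3 for 12, and the lowest was in si-circRtn4 1 for 31 and in si-NC 1 for 8. The summed level of the 41 genes was 840, 1070 and 1030 FPKM in si-NC 1, 2 and 3 and 763, 902 and 900 FPKM in si-circRtn4 1, 2 and 3. The median coefficient of variation within a group was 13.1% with si-NC and 10.1% with si-circRtn4, against 7.89% and 7.92% for the 7038 genes tested in the same range of FPKM. The mitosis and G2/M genes thus varied more between libraries of 1 group than genes of like level did. This was not particular to them. In a list of DNA replication and G1/S genes described below, si-NC means were 33.1 ± 10 FPKM for Mcm3 and 60.9 ± 16.8 FPKM for Pcna (SD, n = 3). In both, replicate 1 was lowest in each group. Other genes of that list varied little, such as Ccnd1 at 80.1 ± 0.844 FPKM.

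Set against the library of the same number, 33, 40 and 39 of the 41 genes were lower with si-circRtn4 in replicates 1, 2 and 3 (80.5%, 97.6% and 95.1%). Of all genes tested, 49.3%, 49.6% and 50.8% were lower. The median difference of the 41 genes was -0.134, -0.218 and -0.190 in replicates 1, 2 and 3. In all 3 pairs, 31 genes were lower (75.6%, against 28.3% of all genes tested), 9 were lower in 2 pairs, and 1, Ndc80, was lower in 1 pair.

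**Figure D2:**
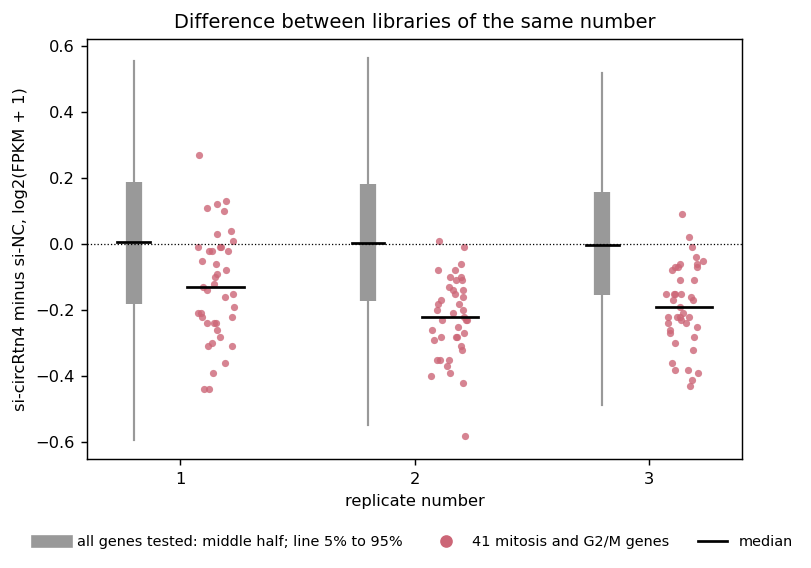
Difference between the si-circRtn4 and the si-NC library of the same replicate number (vertical axis, log2(FPKM + 1)) for the 41 mitosis and G2/M genes (points) beside all 12749 genes tested (grey bar for the middle 50%, thin line from the 5th to the 95th percentile, black lines for medians). The medians of the 41 genes lie at -0.134, -0.218 and -0.190, below those of all genes at 0.005, 0.002 and -0.004.

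The cyclins, Cdk1 and the regulators of Cdk1 were all lower in each of the 3 pairs (7 of 7 genes), with a median log2 fold change of -0.19 and none called without the block. Cdk1, the kinase that drives mitosis, was at 26.3, 36.7 and 33.6 FPKM in si-NC 1, 2 and 3 and at 25.1, 32.6 and 31 FPKM in si-circRtn4 1, 2 and 3. These ranges overlapped over most of their length. The log2 fold change of Cdk1 was -0.11 (95% interval -0.45 to 0.22), with an adjusted p of 0.678 in limma and of 0.19 with the block. Ccnb1, cyclin B1, was at 56.7, 78.3 and 76.6 FPKM with si-NC and at 48.6, 64.5 and 64.2 FPKM with si-circRtn4. Each si-circRtn4 library was below its partner, although si-NC 1 was lower than 2 of the si-circRtn4 libraries. Its log2 fold change of -0.25 (standard error 0.16) had an adjusted p of 0.372 in limma, and 0.0278 with the block. Ccnb2, cyclin B2, was at 28.2, 34.7 and 37.8 FPKM with si-NC and at 22.5, 25.6 and 31.8 FPKM with si-circRtn4, a log2 fold change of -0.33 (standard error 0.15). The groups overlapped by 1 library, si-NC 1, and the adjusted p was 0.215 in limma and 0.0209 with the block. Pseudogene copies of both cyclins were listed, Ccnb1-ps at 1.91 to 3.24 FPKM and Ccnb2-ps at 2.04 to 3.58 FPKM, and reads may have been split between a gene and its copy.

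Foxm1, the transcription factor that drives G2/M genes, was at 17.1, 22.3 and 19.6 FPKM with si-NC and at 16.8, 19.6 and 18.7 FPKM with si-circRtn4. The values overlapped, and the log2 fold change of -0.09 (95% interval -0.34 to 0.17) had an adjusted p of 0.68 in limma. It was 0.00 under TPM, where the median of all genes was 0.086, and 0.01 without si-NC 2. Of the other genes of this group, Ccna2 (cyclin A2) had a log2 fold change of -0.19, Cdc25b of -0.06 and Cdc25c of -0.29, and none of these was called in either fit. The phosphatase Cdc25c was among the genes whose groups did not overlap.

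Plk1, the polo kinase of centrosome maturation and mitotic entry, was at 33.1, 38.5 and 37.8 FPKM with si-NC and at 26.8, 30 and 32.4 FPKM with si-circRtn4. Both groups were apart, with the nearest values at 32.4 and 33.1 FPKM. The log2 fold change was -0.29 (standard error 0.097), with an adjusted p of 0.112 in limma and 0.0236 with the block. Aurka, the Aurora kinase of the spindle poles, had a log2 fold change of -0.20 and was called in neither fit.

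The chromosomal passenger complex, which corrects wrong attachments and later acts in cytokinesis, had all 4 subunits lower in each pair, with a median log2 fold change of -0.21. Cdca8 (borealin) was at 13.4, 15.7 and 14.6 FPKM with si-NC and at 9.6, 12.5 and 11.6 FPKM with si-circRtn4. The groups did not overlap, and the means were 14.6 ± 1.16 and 11.2 ± 1.47 FPKM (SD, n = 3 each). Its log2 fold change was -0.35 (standard error 0.11), with an adjusted p of 0.0864 in limma, 0.0495 in limma-voom and 0.0175 with the block. Aurkb, the kinase of the complex, had a log2 fold change of -0.28 and an adjusted p of 0.185 in limma and 0.0273 with the block. The scaffold Incenp (-0.12) and the survivin gene Birc5 (-0.14) were called in neither fit.

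Of the 5 checkpoint genes, 4 were lower in all 3 pairs, with a median log2 fold change of -0.16. Bub1b, which encodes the checkpoint protein BubR1, was at 23.3, 28.9 and 29 FPKM with si-NC and at 18.6, 23.6 and 23.9 FPKM with si-circRtn4. Only si-NC 1 came within the range of the si-circRtn4 libraries. The log2 fold change was -0.29 (standard error 0.13), and the adjusted p was 0.198 in limma and 0.0195 with the block. The kinases Bub1 (-0.06) and Ttk (-0.07), and Bub3 (-0.20) and Mad2l1 (-0.16), were not called.

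Anaphase onset held the gene with the largest change. Pttg1 encodes securin, the inhibitor of separase, and lies at chr11:43420250-43426251 on the minus strand (GRCm38). Its level was 14.3, 17.1 and 16.6 FPKM with si-NC (16 ± 1.49, SD, n = 3) and 10.9, 12.7 and 12.5 FPKM with si-circRtn4 (12 ± 0.962, SD, n = 3). The groups did not overlap, and the differences within pairs were -0.36, -0.40 and -0.39. Pttg1 fell by 0.38 on the log2 scale (standard error 0.095), to 75.2% of the si-NC mean, with an adjusted p of 0.0468 in limma and 0.0105 with the block. Over the alternatives this p lay between 0.0105 and 0.156, and the call was lost when any library but si-NC 1 was left out (0.0352 without si-NC 1).

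Cdc20, the activator of the anaphase-promoting complex, was at 37.4, 39.1 and 45.9 FPKM with si-NC and at 27.4, 35.6 and 33.7 FPKM with si-circRtn4. The groups did not overlap, but the difference within pair 2 was only -0.13, against -0.44 and -0.43 in pairs 1 and 3. The log2 fold change of -0.33 (standard error 0.12) had an adjusted p of 0.131 in limma and 0.0381 with the block. Elovl1, on the other strand, overlaps Cdc20 and was at 17.1 FPKM with a log2 fold change of 0.17, so reads of both may mix where strand was not used. The separase gene Espl1 (-0.07) and the ubiquitin-conjugating enzyme gene Ube2c (-0.10) were not called.

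The 7 centromere and kinetochore genes had a median log2 fold change of -0.13, and 0 were called in either fit. Cenpf, a large kinetochore protein, had a log2 fold change of -0.20 (95% interval -0.36 to -0.05), and the kinesin gene Cenpe had -0.15 (95% interval -0.33 to 0.02). Both were lower without overlap between the groups. Of the Ndc80 complex, which binds microtubules, Ndc80 was at -0.02, Spc24 at -0.03, Nuf2 at -0.06 and Spc25 at -0.14. Under TPM the first 3 were above 0 but below the median of all genes, 0.086. The centromeric histone gene Cenpa was at -0.13.

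The 3 spindle assembly genes had the lowest median log2 fold change of the roles, -0.32. Hmmr, a microtubule-binding protein of the spindle, was at 13.5, 17.5 and 15.3 FPKM with si-NC and at 11.5, 11.4 and 12.4 FPKM with si-circRtn4. Every si-circRtn4 value lay below every si-NC value, and si-NC 2 was the highest of all. Its log2 fold change was -0.36 (standard error 0.10), with an adjusted p of 0.0693 in limma, 0.0402 in limma-voom and 0.042 with the block. Nusap1, which bundles spindle microtubules, was at 11.9, 15.5 and 15.9 FPKM with si-NC and at 9.94, 12 and 12 FPKM with si-circRtn4. Its si-NC 1 value fell just below the 2 highest si-circRtn4 values. The log2 fold change of -0.32 (standard error 0.13) had an adjusted p of 0.159 in limma and 0.0215 with the block. Tpx2, the activator of Aurora A on the spindle, had a log2 fold change of -0.14 and was called in neither fit.

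The cytokinesis genes were lower in all pairs (3 of 3). Prc1, which bundles the microtubules of the central spindle, was at 9.58, 12.4 and 11.1 FPKM with si-NC and at 7.73, 9.33 and 8.1 FPKM with si-circRtn4. The groups did not overlap, and the log2 fold change of -0.35 (standard error 0.11) had an adjusted p of 0.0887 in limma and 0.0175 with the block. Anln (anillin) and Ect2, the activator of RhoA at the furrow, had log2 fold changes of -0.16 and -0.15 and were not called.

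Chromosome condensation genes changed least clearly, with 5 of 6 lower, 3 of them in all pairs, and none called. Top2a, the topoisomerase that untangles sister chromatids, was the most abundant of the 41 genes, at 66.7, 90.8 and 81.7 FPKM with si-NC and at 68.6, 74.6 and 73.4 FPKM with si-circRtn4. The si-circRtn4 values all lay within the range of the si-NC values, and the log2 fold change was -0.13 (standard error 0.12) with an adjusted p of 0.531 in limma. Mki67, the proliferation marker that coats mitotic chromosomes, was at 33.2, 42.4 and 41.5 FPKM with si-NC and at 33, 35.9 and 37 FPKM with si-circRtn4. Its log2 fold change of -0.13 (95% interval -0.38 to 0.11) had an adjusted p of 0.484 in limma and 0.197 with the block. Among the condensin subunits, Smc4 was at -0.23, Ncaph at -0.26 and Ncapg at -0.07. Smc2 was the 1 gene of the 41 with a log2 fold change above 0, at 0.03 (95% interval -0.35 to 0.41).

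**Figure D3:**
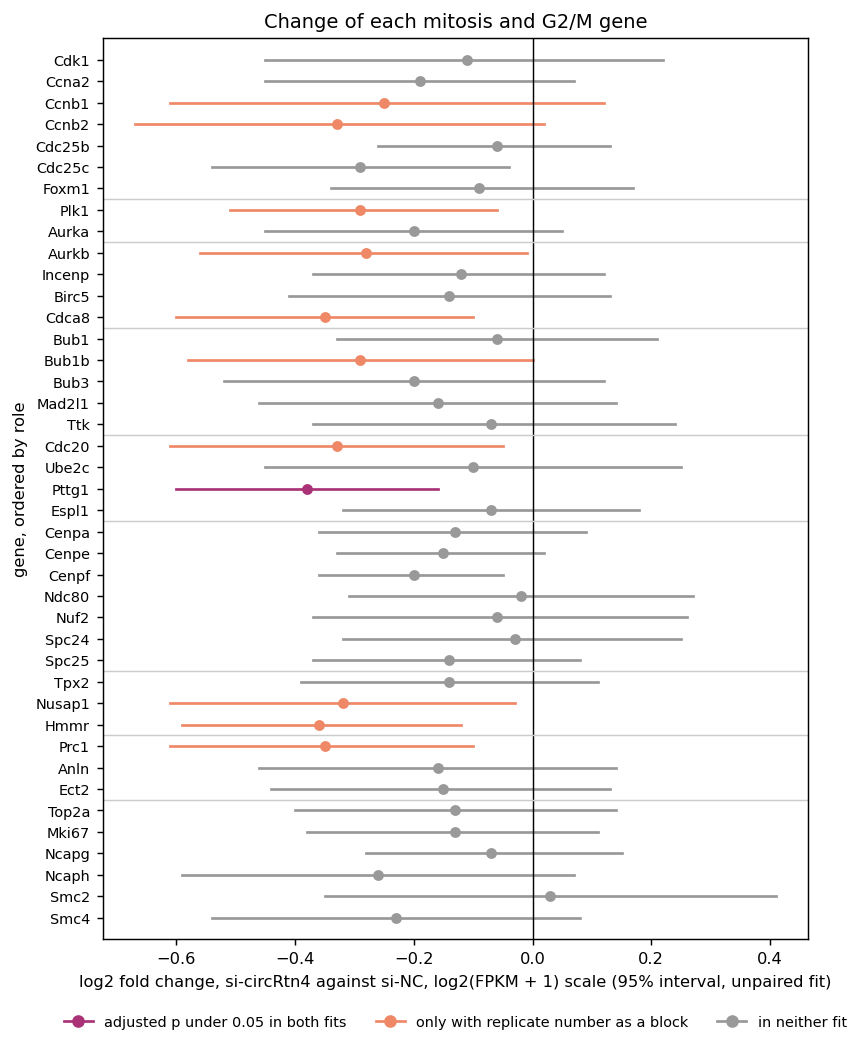
Log2 fold change of each of the 41 mitosis and G2/M genes, si-circRtn4 against si-NC, on the log2(FPKM + 1) scale (horizontal axis), with its 95% interval from the fit without the block, genes ordered by role. The interval lies below 0 for 10 genes and includes 0 for 31, and colour marks Pttg1 (called in both fits) and the genes called with the block alone.

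The 41 genes lie on 15 chromosomes, with 9 of them (22%) on chromosome 2, which holds 8.24% of the genes tested. Promoter sequences were at hand for 33 of them, as RefSeq windows on GRCm38.p6 from 250 bases before to 50 bases from a RefSeq start. That start need not be the start of the gene in the deposited table. Missing were Foxm1, Ccna2, Cdc25c, Aurkb, Spc24, Smc4, Tpx2 and Incenp. The windows were searched on both strands for CCAAT, the box bound by NF-Y, and for TTTGAA or TTCGAA, the cell cycle genes homology region (CHR) to which the MuvB complexes bind. CCAAT was in 25 of 33 genes (75.8%), against 41.1% of all 27025 genes with a window, and a CHR was in 25 of 33 (75.8%), against 21.7%. Both were in a window of 23 genes (69.7%), against 8.61% of all genes with a window and 6.86% of the 8879 tested. For the DNA replication and G1/S genes, a list of 51 with a window for 40, CCAAT was found in 62.5%, a CHR in 17.5% and both in 15%.

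**Figure D4:**
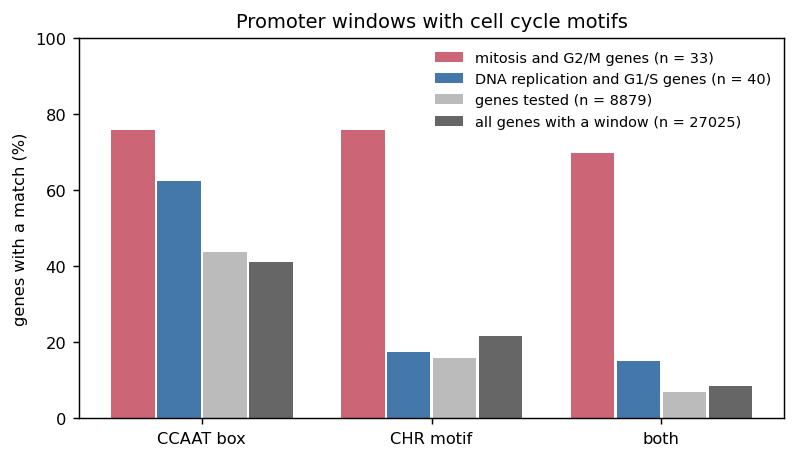
Share of genes (vertical axis, %) whose 300-base promoter window holds a CCAAT box, a CHR motif or both, for the mitosis and G2/M genes (33), the DNA replication and G1/S genes (40), the genes tested (8879) and all genes with a window (27025). The mitosis and G2/M genes stand at 75.8%, 75.8% and 69.7%, and the other sets lie between 15.8% and 21.7% for the CHR.

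Stretches are shown for 4 of the genes with large differences that hold both motifs, and for Nusap1, which holds neither. They read 5′ to 3′ on the strand of the gene, with CCAAT (or ATTGG, its other strand) and the CHR in capitals. Cdc20 (minus strand, chr4:118437336-118437406) has a CHR with its first base 18 bases before the start and a CCAAT box on either side. Prc1 (plus strand, chr7:80294404-80294461) has both once, with 32 bases from the first base of one to that of the other. Ccnb2 (minus strand, chr9:70421535-70421731) has 3 CCAAT boxes and 2 CHRs, and Hmmr (minus strand, chr11:40733414-40733619) has 5 CCAAT boxes and 1 CHR. For Nusap1 (plus strand, chr2:119618198-119618297) the 100 bases before the start are given.
Cdc20: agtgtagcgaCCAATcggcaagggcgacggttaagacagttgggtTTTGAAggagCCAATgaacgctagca
Prc1: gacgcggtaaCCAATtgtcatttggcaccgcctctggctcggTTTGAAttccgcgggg
Ccnb2: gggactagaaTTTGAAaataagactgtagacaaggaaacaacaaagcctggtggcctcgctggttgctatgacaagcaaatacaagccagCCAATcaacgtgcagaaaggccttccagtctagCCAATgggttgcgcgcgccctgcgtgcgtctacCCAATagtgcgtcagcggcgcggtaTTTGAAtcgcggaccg
Hmmr: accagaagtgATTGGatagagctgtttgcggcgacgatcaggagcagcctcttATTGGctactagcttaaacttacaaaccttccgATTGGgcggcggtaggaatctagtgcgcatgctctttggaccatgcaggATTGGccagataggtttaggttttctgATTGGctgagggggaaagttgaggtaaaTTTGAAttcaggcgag
Nusap1: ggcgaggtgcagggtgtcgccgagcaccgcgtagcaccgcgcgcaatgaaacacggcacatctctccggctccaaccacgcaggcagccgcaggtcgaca

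The 23 genes with both motifs had a median log2 fold change of -0.145 (range -0.36 to 0.03), and 7 of the 23 were called with the block. The 6 genes with neither (Birc5, Mad2l1, Ncaph, Nuf2, Nusap1 and Pttg1) had a median of -0.21 (range -0.38 to -0.06), and 2 of the 6 were called with the block. The block fit called 26.8% of the 41 genes lower, against 9.75% of all genes tested. The ranges of both sets overlap, and a difference between them, in fold change or in the share called, was not tested. CCAAT alone was in Ccnb1 and Cenpe, and a CHR alone in Anln and Ndc80. A match is a run of letters and not a measured binding site, and a window around another start of the same gene may hold other letters. In 25 of the 36 windows, the bases from the start were found near the beginning of an annotated transcript. The windows of Pttg1 (chr11:43425932-43426231) and Cdca8 lie wholly inside the annotated gene. That of Mad2l1 ends at base 66535270, before the annotated gene begins at 66535390. The class of such a gene may thus not be that of its main promoter.

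Seed sites of both small RNAs of the study were searched, taking for each gene its longest annotated 3′ UTR. Bases 2 to 8, the seed, are in capitals in miR-24-3p and in the guide strand of si-circRtn4, assumed to be the strand complementary to the one the study lists.
miR-24-3p: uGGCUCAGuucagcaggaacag
si-circRtn4 guide: aAAAGGGUcucaucugaag

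A site for miR-24-3p (CTGAGCC) was in 6 of the 41 genes (14.6%), against 19.6% of 10660 protein-coding genes tested. The 6 were Cdk1, Foxm1, Plk1, Birc5, Mad2l1 and Tpx2, and their median log2 fold change was -0.139, against -0.162 for the genes without a site. A site for the guide (ACCCTTT) was in 4 of the 41 genes (9.76%), Ccna2, Mad2l1, Ube2c and Nusap1, against 12.5% of the same 10660 genes. Their median was -0.176, against -0.152 for the genes without one, and over all protein-coding genes tested the medians were -0.048 with a guide site and 0.007 without. For miR-24-3p the medians over all these genes were 0.004 and -0.001. The median length of the 3′ UTR was 796 bases for the 41 genes and 1170 bases for all, and its part in the shares was not tested. The site of miR-24-3p in Plk1 begins at base 42 of a 3′ UTR of 283 bases, and the site of the guide in Nusap1 begins at base 282 of 2255, with the 7 bases in capitals.
Plk1: ctctgctagctCTGAGCCtgcactgtagg
Nusap1: agatgacctgcACCCTTTtctgcacaagc

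Each of 5 further lists of mitotic genes had a median nearer to 0 than these 41 genes. The lists, like the 41 genes, were chosen with earlier results of these data known. Of the 123 genes of these lists, 75 were lower and 48 higher, with a median log2 fold change of -0.038. Limma called 2 lower (1.63%) and 2 higher (1.63%) without the block, and 7 lower (5.69%) and 3 higher (2.44%) with it. Of all genes tested, 4.82% were called lower and 4.36% higher without the block, and 9.75% and 9.29% with it. The 27 mitotic kinesin and spindle genes were nearest to the 41 genes, with 24 lower and a median of -0.125. Among them Kif18b, a kinesin that shortens astral microtubules, was at 27, 33.2 and 31.7 FPKM with si-NC and at 19.1, 22.1 and 22 FPKM with si-circRtn4. The groups did not overlap, and Kif18b fell by 0.52 (adjusted p = 0.0223 in limma, 0.0194 to 0.0844 when 1 library was left out and lost with any but si-NC 1). Cit, the citron kinase of cytokinesis, went the other way, from 4.56, 4.27 and 4.72 FPKM to 6.49, 6.17 and 6.77 FPKM, and rose by 0.44 (adjusted p = 0.0164 in limma). Its adjusted p ran from 0.0363 to 0.072 when 1 library was left out, and the call was lost without si-NC 2, si-circRtn4 1 or si-circRtn4 3. With the block, 3 more genes of this list were called lower, Kif23 (-0.31), Racgap1 (-0.29) and Tacc3 (-0.23), which are named here after their values were seen.

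The anaphase-promoting complex (17 genes, median -0.022) and the other kinetochore and centromere genes (33 genes, median 0.002) held no call without the block. With it, Fzr1, the other activator of the anaphase-promoting complex, and Zwint were called lower and Dsn1 higher, again named after their values were seen. The cohesin and other condensin genes (15 genes, median -0.009) held 1 call, Rad21, the cohesin subunit that separase cuts. Rad21 was at 88.6, 109 and 116 FPKM with si-NC and at 49.1, 55.6 and 66.8 FPKM with si-circRtn4. It fell by 0.86 (adjusted p = 0.0121 in limma), more than any of the 41 genes, and its groups did not overlap. Without si-NC 2 or si-circRtn4 2 the adjusted p was 0.0522 and 0.0502.

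Of the 31 G2/M control and DREAM genes (median -0.003), 1 was called. Cdkn1a, which encodes the Cdk inhibitor p21, was at 19.3, 19.8 and 20 FPKM with si-NC and at 23.9, 30.2 and 25.9 FPKM with si-circRtn4. Every si-circRtn4 library was above every si-NC library, and Cdkn1a rose by 0.41 (adjusted p = 0.0353 in limma). The adjusted p ran from 0.0401 to 0.109 when 1 library was left out, and the call was lost with any but si-circRtn4 1.

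The 51 DNA replication and G1/S genes were spread evenly, with 23 lower, 28 higher and a median log2 fold change of 0.012. Limma called 2 lower (3.92%, against 4.82% of all genes tested) and 0 higher (against 4.36%) without the block. Ccnd1, cyclin D1 of early G1, was at 79.4, 81 and 79.9 FPKM with si-NC and at 57.5, 57.2 and 61 FPKM with si-circRtn4, and fell by 0.45 (adjusted p = 0.0097 in limma, and 0.0518 without si-NC 2). Slbp, which binds histone mRNA, fell by 0.40 (adjusted p = 0.0334 in limma), from 8.55, 10.2 and 8.77 FPKM to 7.16, 6.41 and 6.52 FPKM. Its adjusted p ran from 0.0458 to 0.114 when 1 library was left out, and the call was lost with any but si-NC 1. With the block, 3 were called lower (5.88%, against 9.75% of all genes tested). They were these 2 and Dnmt1 (-0.28), the maintenance DNA methyltransferase gene. The block fit called 5 higher (9.8%), about the share of all genes tested (9.29%). These 5 were Ccne1 (0.28) and Ccne2 (0.47), the E cyclins of the start of S phase, with Gins4 (0.24), Chaf1b (0.51) and Rpa3 (0.32). Dnmt1 and these 5 are named after their values were seen. The share of this list that was lower was 17.6%, 47.1% and 72.5% in pairs 1, 2 and 3, so it moved widely between pairs. That of the 41 genes was 80.5%, 97.6% and 95.1%, and that of all genes tested 49.3%, 49.6% and 50.8%. Whether the lists differ was not tested. Of the genes called and named from this list and the 5 above, Rad21, Fzr1, Slbp and Dnmt1, all lower, each had 1 guide seed site. The other called genes had 0 guide sites in the 3′ UTR. Of the protein-coding genes tested, 12.5% had such a site. Uncalled genes of the lists held guide sites too, such as Rbl1 (3 sites, -0.32), Pds5a (2 sites, 0.03) and Gins2 (1 site, 0.29). These are examples named after their values were seen. Among the called genes, Zwint had 2 miR-24-3p sites, Fzr1 had 1 and the others had 0. The part of these sites in the results was not tested.

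**Figure D5:**
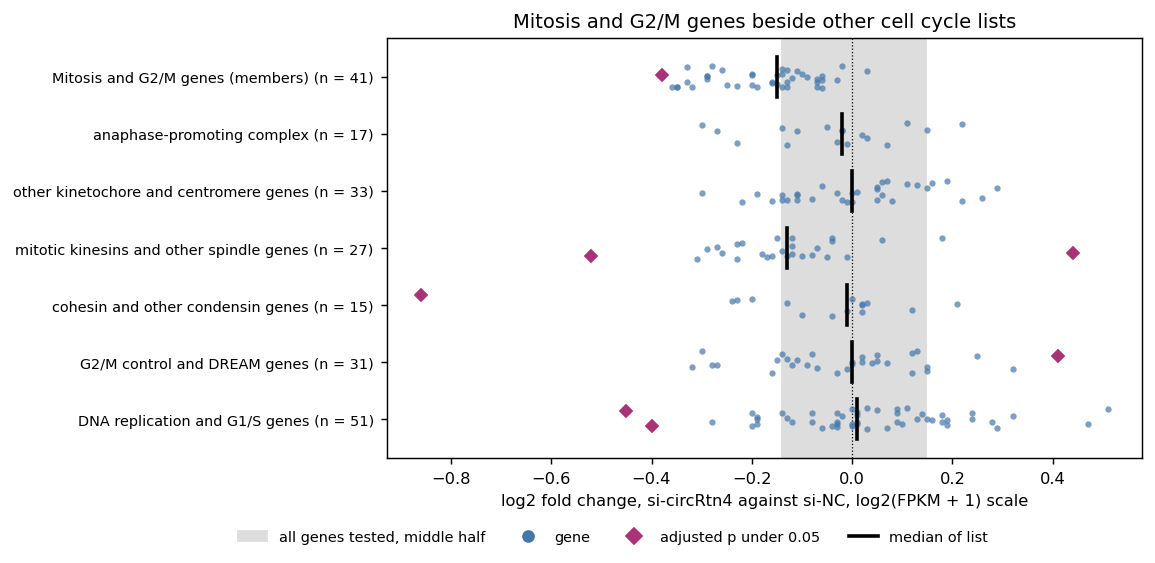
Log2 fold change, si-circRtn4 against si-NC, on the log2(FPKM + 1) scale (horizontal axis) for the genes (points) of the mitosis and G2/M genes and of the 6 other lists, with the median of each list as a black line and genes at an adjusted p under 0.05 in the fit without the block as diamonds. The grey band holds the middle 50% of all genes tested (-0.140 to 0.148), and the median of the 41 genes, at -0.155, lies below it.

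Several of the genes overlap another expressed gene on the other strand, which was the case for 8 of the 41 with a protein-coding neighbour. Besides Cdc20, these were Ccna2, Cdc25b, Cdc25c, Cdca8, Nusap1, Prc1 and Ncapg. How strand was used in counting is not given in the sources used here, so the levels of these genes may hold reads of the neighbour.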

How the data were processed

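The authors deposited FPKM values per gene for each library, with gene length and coordinates. The submitters' processing notes name Bowtie 0.12.2 and the builds mm8 and mm9 with no role. The counting tool, annotation and strandedness are not given in the sources used here. The coordinates were those of GENCODE M21 (GRCm38) for 98.1% of genes and 39 of the 41 members. The sample labels gave the groups, and 6 further columns of other samples were not used. Nothing says that libraries came from separate cultures, so p-values may measure technical spread.

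log2(FPKM + 1) was fitted by limma (version 3.58.1, R 4.3.3; trended eBayes after lmFit) over 12749 genes that averaged 1 FPKM or more, with Benjamini-Hochberg adjustment and a threshold of 0.05. The pseudocount understates changes of low genes. FPKM times length gave whole reads for 100% of values (tolerance 0.01), and limma-voom was run on these as an alternative. Deviations from group means correlated at 0.331, 0.19 and 0.226 for the same replicate number and from -0.228 to 0.00913 otherwise, so the numbers were taken as pairs. Deviations sum to 0 within a group, so positive values for the same number push the others down. The contrast is thus partly fixed in advance, and whether the numbers mark pairs was not tested. Neither the labels nor the methods say what a number marks.

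The members and lists were chosen with earlier results of these data known. Values by library are given for Cdk1, Ccnb1, Plk1, Foxm1, Mki67 and Top2a, for called members, and for the members with the largest log2 fold change until 8 were reached. Of other lists, genes called without the block were named, at most 3 per list and direction, and genes called only with the block were named after their values were seen. Alternatives were the block, a pseudocount of 0.1, no filter, TPM, TPM without Gm23935, quantile normalization, limma-voom and leaving out each library, and leaving out each pair under the block was added after seeing the data. Python 3.11.15 with pandas 2.3.3 was used for sequence searches and matplotlib 3.10.9 for plots. The limma fit without the block was tested on simulated data with independent libraries. The block fit, limma-voom and the sequence searches were not tested in this way.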

Additional observations from a re-analysis of the deposited data

How the results depend on the processing

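The number of the 41 genes called lower (1) was 11 with replicate number as a block (26.8%, against 9.75% of all genes tested). With limma-voom it was 3 (Hmmr, Pttg1 and Cdca8), which is 7.32%, against 5.66% of all genes tested. It was 0 with no filter, 0 with TPM and 0 with TPM without Gm23935. It ran from 0 to 3 when 1 library was left out (3 without si-NC 1). With the block it was 4 without pair 1, 2 without pair 2 and 4 without pair 3. The share of all genes called is not given here for the fits that left out a library or a pair. None was called higher under any alternative. The median log2 fold change lay between -0.253 (without si-NC 1) and -0.097 (without si-circRtn4 1), and was -0.079 under TPM, where the median of all genes moved to 0.086. Of the 123 genes of the 5 further lists, the 2 called lower became 7 with the block (5.69%, against 9.75% of all genes tested). With limma-voom they became 4 (3.25%, against 5.66%). They became 0 with no filter, 4 with the block without pair 1, and 0 to 5 when 1 library was left out. The 2 called higher became 0 with no filter, 1 with the block without pair 2, and 0 to 1 when 1 library was left out. The cause was not tested.

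Under TPM the median of all genes was 0.086, and each TPM value in this paragraph lay below it. Small changes switched sign. Under TPM this held for Cdc25b (0.03), Foxm1 (0.00), Bub1 (0.03), Ttk (0.02), Espl1 (0.02), Ndc80 (0.07), Nuf2 (0.03), Spc24 (0.06) and Ncapg (0.02), and for Ndc80 without Gm23935 (0.00) and in limma-voom (0.01). Without si-NC 2 it held for Foxm1 (0.01), Bub1 (0.01), Espl1 (0.00), Ndc80 (0.02), Nuf2 (0.07) and Spc24 (0.06), and without si-NC 3 for Ndc80 (0.06). Without si-circRtn4 1 it held for Ttk (0.03), Ube2c (0.05), Espl1 (0.03), Ndc80 (0.05), Nuf2 (0.01) and Spc24 (0.01), and without si-circRtn4 3 for Spc24 (0.01) and Smc2 (-0.01). Smc2 was also at -0.16 without si-NC 1 and at -0.09 with the block without pair 1. With the block without pair 3 it held for Bub1 (0.03), Ndc80 (0.06), Spc24 (0.02) and Ncapg (0.00). None of these values was called. Over all 6 leave-one-out fits, these genes ran as follows: Foxm1 -0.18 to 0.01, Bub1 -0.18 to 0.01, Ttk -0.18 to 0.03, Ube2c -0.19 to 0.05, Espl1 -0.13 to 0.03, Ndc80 -0.14 to 0.06, Nuf2 -0.17 to 0.07, Spc24 -0.15 to 0.06 and Smc2 -0.16 to 0.13. At 3 libraries per group, the 95% interval of 31 of the 41 genes included 0, and the intervals reached from -0.67 to 0.41.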
